A study of Marchantia polymorpha and Arabidopsis thaliana and Oryza sativa Japonica Group with 80 samples.

Results

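The line labelled wrky25/33 was compared with Col-0, the common laboratory accession of Arabidopsis thaliana, in 18 of the 80 samples of the study: 9 libraries of the labelled line and 9 of Col-0. The samples were chosen by their labels alone, as all those of the experiment that set the labelled mutant beside Col-0. Both genotypes were 7-day-old seedlings grown in liquid Murashige and Skoog medium under continuous light and given 100 mM NaCl for 0, 2 or 24 h, with 3 libraries per genotype and time. The labels call the line a knockout of both genes and give no allele, no insertion site and no account of its background. RNA came from whole seedlings, so fewer cells of a type and less RNA per cell cannot be told apart. The libraries are called biological replicates, the deposited sheet of conditions calls their number a batch, and no source used here says whether they came from separate cultures, so p-values measure the spread between these libraries.

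WRKY proteins are plant transcription factors that bind the W-box element of promoters, and many of them act in immunity and in stress responses. WRKY33 is known as a regulator of the antimicrobial camalexin and of defence against necrotrophic fungi, it is activated by MAP kinases, and together with the closely related WRKY25 and WRKY26 it has been linked to heat and salt responses. A separate group, WRKY18, WRKY40 and WRKY60, forms complexes among its own members and is known for acting in pathogen and abscisic acid responses.

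Sequencing gave 17431071 to 41887006 reads counted to genes per library, 18816238 to 41887006 in Col-0 and 17431071 to 38232487 in the labelled line. Of 34218 genes, 19316 had enough reads to be tested. Levels are given as CPM, the reads of a gene per 1000000 counted reads of the library after TMM scaling for library composition. Differences are log2 fold changes of the labelled line over Col-0 with their standard error, from 1 model over all 18 libraries with time and replicate number as further terms, and a gene is called where the adjusted p is under 0.05 over all 19316 genes. The summed level of 8 root markers was 229 to 623 CPM in Col-0 and 305 to 460 CPM in the labelled line, and that of 22 photosynthesis genes was 54900 to 104000 and 56000 to 110000 CPM. The summed level of 4 seed storage genes was 0.229 CPM in the highest Col-0 library and 74 CPM in the highest of the labelled line. The medians were 0.0644 and 0.195 CPM, and the part of these genes in the results was not tested. On the largest axis of variation, which held 35.5% of the variance, Col-0 replicate 2 at 24 h stood apart from the other 24 h libraries, at 13.8 against 48.3 to 98.3. The fifth axis, with 5.24% of the variance, placed all 9 Col-0 libraries below 0 and all 9 of the labelled line above 0.

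Transcript of the named genes was not lost. Neither WRKY25 nor WRKY33 was lower in the labelled line than in Col-0 at any time by more than the spread between libraries. WRKY25 (AT2G30250) stood at 41.2, 24.7 and 41.1 CPM in Col-0 at 0 h and at 44.5, 33.2 and 42 CPM in the labelled line. At 2 h the Col-0 libraries had 63.1, 52.8 and 64.8 CPM, and those of the labelled line 60.7, 46.1 and 67.1 CPM. At 24 h the values were 91.5, 42.7 and 135 CPM in Col-0 and 92, 67.4 and 124 CPM in the labelled line. The genotypes overlapped at each time, and in both of them the mean was higher at 24 h than at 0 h. These levels rest on 866 to 2530 reads per Col-0 library and 757 to 3020 per library of the labelled line. The pooled log2 fold change was 0.08 ± 0.11 (95% interval -0.14 to 0.31, adjusted p = 0.896), and the labelled line was higher in 6 of 9 pairs of libraries with the same time and number.

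WRKY33 (AT2G38470) had 30, 20.5 and 229 CPM in Col-0 at 0 h and 44.5, 30.7 and 164 CPM in the labelled line. The third library was high in both genotypes, and the groups overlapped. At 2 h the values were 34.1, 31.6 and 46.1 CPM in Col-0 and 35.2, 44.1 and 47.3 CPM in the labelled line. At 24 h they were 28.4, 18.1 and 47.3 CPM in Col-0 and 30.1, 20.2 and 47.9 CPM in the labelled line. Overlap between the genotypes was thus present at all 3 times. Pooled over times the log2 fold change was 0.11 ± 0.25 (95% interval -0.42 to 0.65, adjusted p = 0.955), with the labelled line higher in 8 of 9 pairs. The libraries carry no strand information, and 6.77 to 13.5% of the Col-0 reads at this locus and 6.42 to 20% of those of the labelled line fell where genes overlap and were left out of its count. A count per gene cannot tell a complete transcript from one interrupted or truncated by an insertion, so these values speak to the amount of transcript and not to the protein.

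WRKY26 (AT5G07100), a close relative of both, ran from 33.4 to 148 CPM in Col-0 and from 35 to 162 CPM in the labelled line. It was not called, with a log2 fold change of 0.10 ± 0.10 (adjusted p = 0.86).

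**Figure D1:**
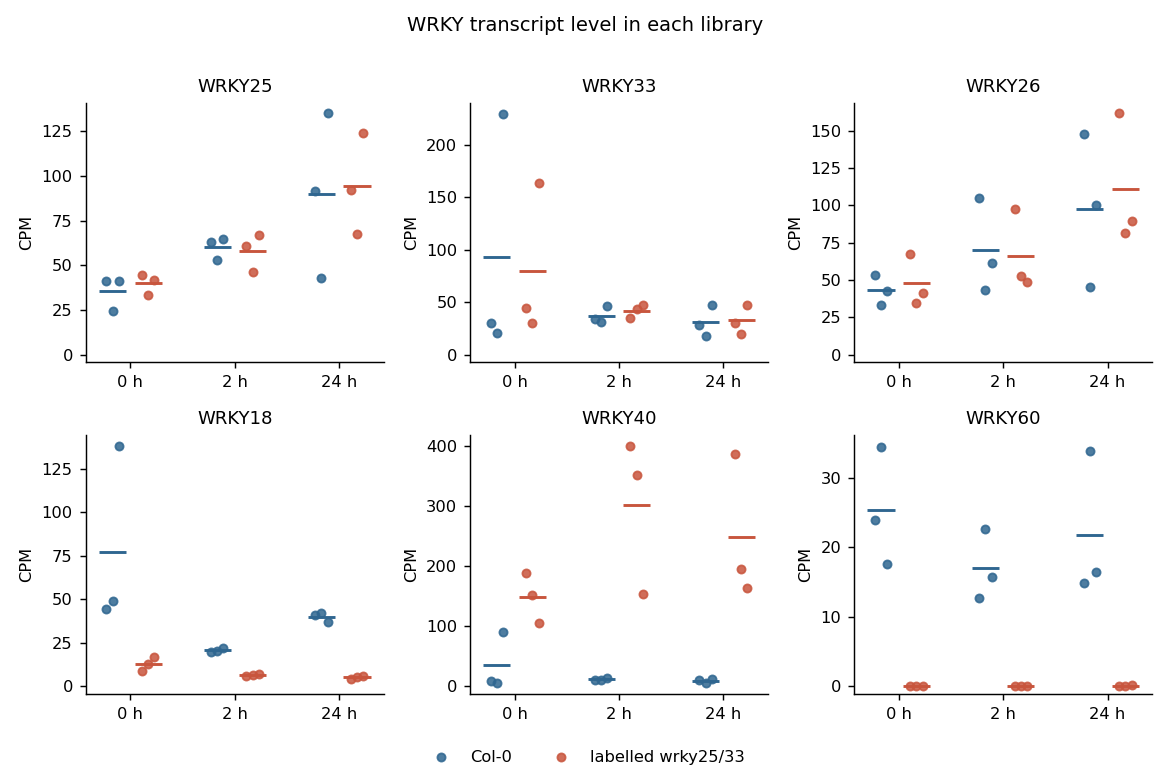
Level of 6 WRKY genes in CPM on a linear axis at 0, 2 and 24 h. Each point is 1 library (3 per genotype and time, Col-0 blue, the line labelled wrky25/33 red) and each bar a group mean. WRKY25, WRKY33 and WRKY26 overlap between genotypes, whereas WRKY18 and WRKY60 lie lower and WRKY40 higher in the labelled line at every time.

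Among all genes tested, 106 were called higher and 87 lower in the labelled line (0.549% and 0.450% of 19316 genes), 193 in all (0.999%). At an unadjusted p under 0.05 the number was 1694. All 193 kept the same sign of log2 fold change at 0, 2 and 24 h, which a call on 1 genotype term shared by all times favours. The stricter description used below, a gene held at every time, asks that the gene was called and that the 3 libraries of the labelled line all lay above, or all below, the 3 Col-0 libraries at each time. It was met by 86 genes (0.445% of those tested), 42 higher and 44 lower (0.217% and 0.228%). Without the requirement of a call, 90 genes (0.466%) were free of overlap in the same direction at every time.

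Differences held at every time were large, which the demand for no overlap between libraries favours by itself. Their median absolute log2 fold change was 1.88, against 0.69 for the 107 called genes that did not hold and 0.09 over all genes tested. Of the called genes, 96 differed by 1 or more on the log2 scale, 67 of them held, and 50 differed by 2 or more. Leaving out 1 library at a time gave 158 to 227 calls, and 140 of the 193 genes were called in all 18 of these fits, 82 of the 86 held genes among them. DESeq2 called 332 genes, 192 of the 193 among them, and without the replicate number in the model 104 were called, all of them among the 193. Without the libraries of 0 h, of 2 h or of number 1 the calls fell to 98, 78 and 93.

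Tested at single times, 45 genes were called at 0 h (21 higher and 24 lower, 0.233%), 64 at 2 h (31 and 33, 0.331%) and 57 at 24 h (26 and 31, 0.295%), and 35 genes were called separately at all 3 times. In all, 81 genes were called at 1 time or more, of which 74 were also called with times pooled and 7 were not. These counts moved with single libraries: 32 to 37 genes were called at 2 h when any 1 of the 6 libraries of that time was left out. At 24 h 168 genes were called without Col-0 replicate 1, 36 without Col-0 replicate 3, and 32 and 33 without replicates 1 and 3 of the labelled line. No gene was called for a genotype difference that changed with time by edgeR's quasi-likelihood test of the interaction (0 of 19316, 335 genes or 1.73% at an unadjusted p under 0.05), and DESeq2 called none either. With no interaction at any gene, 966 genes would be expected at that unadjusted p. The edgeR test thus gave fewer small p-values than its threshold implies. The lack of calls does not show that the differences were equal at all times.

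**Figure D2:**
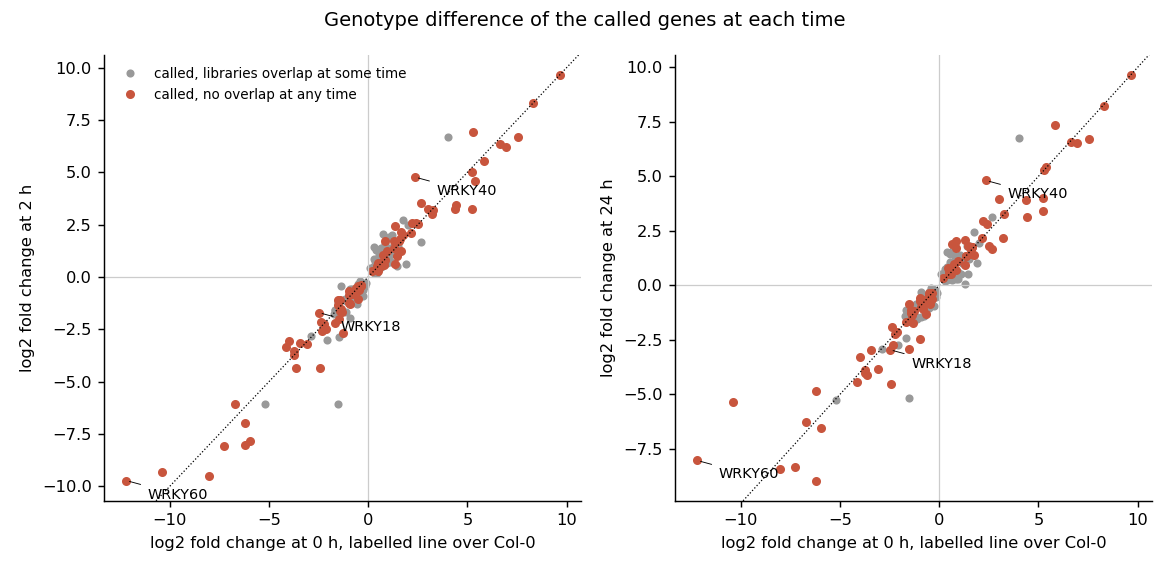
Log2 fold change of the labelled line over Col-0 for the 193 called genes, at 2 h (left) and 24 h (right) against that at 0 h, with the line of equal values dotted. Red points are the 86 genes whose libraries do not overlap between genotypes at any time and grey points the other 107. All points lie at the lower left or upper right of the 0 lines, with WRKY60 and WRKY18 in the former place and WRKY40 in the latter. The pooled call favours genes with the same sign at each time.

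The 3 WRKY genes held at every time were WRKY60, WRKY18 and WRKY40, the group named above. WRKY60 (AT2G25000) gave 505, 1622 and 384 reads in the untreated Col-0 libraries, 237, 504 and 322 reads after 2 h of salt and 232, 716 and 310 reads after 24 h, which are 12.7 to 34.5 CPM. In the labelled line 6 reads of this gene were counted over the 9 libraries against 4832 in Col-0: none at 0 h, 1 at 2 h and 5 at 24 h. Its transcript was thus near 0 at every time and no library overlapped. At 0 h, where the labelled line had no read, WRKY60 was at least 666-fold lower, taking the floor as 3 reads over the group. Over all libraries the ratio of summed, depth-corrected counts was 818 (95% interval 375 to 2230, counting error only). The pooled edgeR log2 fold change was -9.25 ± 0.30 (adjusted p = 2.14e-12).

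WRKY18 (AT4G31800) fell at every time. Col-0 had 44.5, 48.8 and 138 CPM at 0 h, and the labelled line 8.95, 13.1 and 16.6 CPM. At 2 h the levels were 19.8, 20.6 and 22 CPM in Col-0 and 5.69, 6.8 and 6.85 CPM in the labelled line. At 24 h Col-0 had 40.8, 42.1 and 37.1 CPM and the labelled line 4.45, 5.63 and 5.82 CPM. The highest library of the labelled line lay below the lowest Col-0 library at each time, and even the highest of all 9, at 16.6 CPM, lay below the lowest of Col-0, at 19.8 CPM. The pooled log2 fold change was -2.39 ± 0.20 (adjusted p = 9.84e-07), and the single times gave -2.50, -1.70 and -2.95 (adjusted p = 0.000367, 0.0131 and 0.000104).

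WRKY40 (AT1G80840) was higher in the labelled line. At 0 h it stood at 9.28, 5.11 and 91.1 CPM in Col-0 and 188, 152 and 106 CPM in the labelled line, so that the third Col-0 library came close to the lowest of the labelled line. At 2 h the levels were 9.94, 11 and 14 CPM against 399, 352 and 153 CPM, and at 24 h 10.9, 5.24 and 11.7 CPM against 387, 195 and 163 CPM. The groups did not overlap at any time, and replicate 3 of Col-0 at 0 h was also the highest Col-0 library for WRKY33 and WRKY18. Of the Col-0 reads at the WRKY40 locus, 5.03 to 31.5% fell where genes overlap and were left out of its count. In the labelled line that share was 7.75 to 14.2%. Pooled, the log2 fold change was 4.08 ± 0.58 (adjusted p = 0.000629). Taken singly, the 2 h and 24 h libraries gave 4.77 and 4.81 (adjusted p = 0.0206 and 0.0218), and the 0 h libraries gave 2.35, which did not pass (adjusted p = 1). The pooled call ended without the libraries numbered 1 (3.64, adjusted p = 0.0659) and without the 2 h libraries (3.88, adjusted p = 0.0615).

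WRKY74 (AT5G28650), at a far lower read count, was the only other called member of the family. It had 64 reads over the Col-0 libraries and 211 over those of the labelled line, from a mean of 0.258 CPM to 1.04 CPM, with a log2 fold change of 2.07 ± 0.26 (adjusted p = 0.000168). The labelled line was higher in 9 of 9 pairs, and the groups were apart at 0 h and 2 h and overlapped at 24 h. WRKY74 was called at no single time (adjusted p = 0.0632, 0.227 and 0.214 at 0, 2 and 24 h). Of 67 WRKY genes listed, 49 were tested, and 2 rose and 2 fell, 8.16% of those tested against 0.999% of all genes. Their median log2 fold change was 0.10, against -0.01 over all genes tested, and 11 of the 49 (22.4%) had an unadjusted p under 0.05, against 8.77% of all genes. Uncalled members include WRKY6 at 0.33 ± 0.15 (adjusted p = 0.569), WRKY53 at -0.14 ± 0.30 (adjusted p = 0.643) and WRKY70 at 0.64 ± 0.29 (adjusted p = 0.545).

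The largest differences outside the WRKY family lay at loci that the files give by identifier only and do not pair with names. Of the genes held at every time with a mean of at least 5 CPM in the higher genotype, the 12 largest rises and 12 largest falls were taken, and 2 unnamed loci of each direction are described here. AT4G24420 had 0.0472 to 0.533 CPM in Col-0 and 27.5 to 41 CPM in the labelled line. Its lowest library in the labelled line was thus far above the highest of Col-0, with a log2 fold change of 7.00 ± 0.19 (adjusted p = 2.09e-13). AT5G28030 had 1.47 to 3.73 CPM in Col-0, and 343, 275 and 137 CPM at 0 h, 391, 245 and 102 CPM at 2 h and 413, 361 and 248 CPM at 24 h in the labelled line. At each time the library numbered 3 was the lowest of the labelled line, and the log2 fold change was 6.55 ± 0.22 (adjusted p = 2.48e-12).

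On the side of the falls, AT4G23220 had 3.14, 3.24 and 15.8 CPM at 0 h, 5.4, 11.7 and 21 CPM at 2 h and 0.579, 1.04 and 0.692 CPM at 24 h in Col-0. The labelled line had 2 reads in all against 1396. The locus was lower at 24 h than at 0 h or 2 h in every Col-0 library, while the labelled line stayed at or near 0. The ratio of summed counts was 709 (95% interval 196 to 5860, counting error only). The pooled edgeR log2 fold change was -8.83 ± 0.50 (adjusted p = 4.17e-09). Tested at single times, the locus was called at 0 h and 2 h (adjusted p = 0.000151 and 5.32e-05). It did not pass at 24 h (adjusted p = 0.0574), where Col-0 had 44 reads against 1. AT1G75945 was steadier, with 13 to 18.3 CPM in Col-0 and 8 reads against 3332 in the labelled line. That is a ratio of 423 (95% interval 214 to 980, counting error only). The pooled edgeR log2 fold change was -8.50 ± 0.32 (adjusted p = 1.42e-11).

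**Figure D3:**
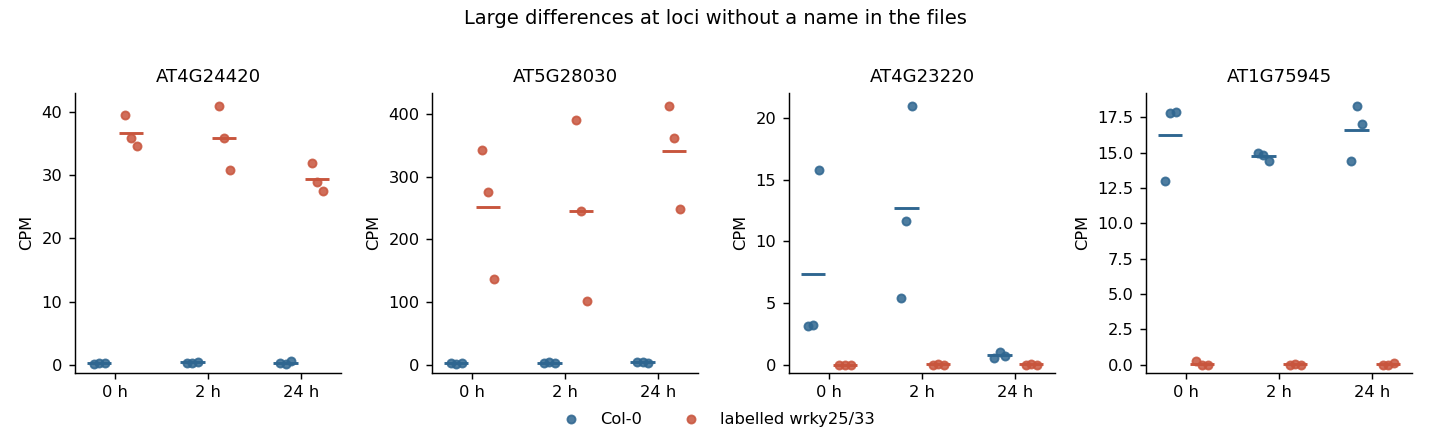
Level in CPM on linear axes of 4 loci for which the files give no name, at 0, 2 and 24 h. Each point is 1 library and each bar the mean of 3 (Col-0 blue, the labelled line red). AT4G24420 and AT5G28030 lie near 0 in Col-0 and at 27.5 CPM or more in the labelled line, and AT4G23220 and AT1G75945 lie near 0 in the labelled line.

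Called genes were unevenly placed along the chromosomes. Among neighbouring loci whose number ends in 0, the number rises along the rows of the table for 98.1%. Some loci with other endings, such as AT1G04477, stand out of number order. The place of a gene was therefore read from its row order among the tested genes of its chromosome. Split into 385 runs of 50 tested genes, the nuclear genes gave 300 runs with no called gene, 59 with 1, 8 with 2 and 18 with 3 or more. Neighbouring runs with at least 3 called genes were joined into stretches, and a gap of 1 run with fewer calls between them was allowed, which took in 1 run with 2 called genes on chromosome 1. This rule, made after the values were seen, gave 4 stretches. They held 947 tested genes, with 120 of the 193 called genes and 71 of the 86 held genes. Since the runs were chosen by their called genes, the share called within the stretches is fixed by that choice and these counts describe the stretches only.

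The stretch on chromosome 4, from AT4G20110 to AT4G24710, held 350 tested genes, of which 32 rose, 22 fell and 32 held at every time. On chromosome 1 the stretch from AT1G75630 to AT1G80980 held 447 tested genes, with 17 higher, 26 lower and 22 held. The stretch on chromosome 5, from AT5G27550 to AT5G35180, was short, with 7 higher and 10 lower of 100 tested, and 15 of the 17 held. The fourth, at the start of chromosome 3 from AT3G01040 to AT3G01540, had 2 higher and 4 lower of 50. Rises and falls thus lay side by side in all 4 stretches. The 120 called genes became 76 without the 0 h libraries, 63 without the 2 h libraries and 68 without those numbered 1.

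WRKY40 lies in the stretch on chromosome 1, and 7 of its 35 nearest tested neighbours were called, 5 of them held. DESeq2 called 11 of the 35, and 20 (57.1%) had an unadjusted p under 0.05 by edgeR. WRKY74 lies in the stretch on chromosome 5, and AT4G24420, AT5G28030, AT4G23220 and AT1G75945 all lie in a stretch as well. WRKY60 and WRKY18 do not. Of their 40 nearest tested neighbours, 1 was called beside WRKY60 and 0 beside WRKY18, by edgeR and by DESeq2 with times pooled (5 and 1 at an unadjusted p under 0.05). The 40 neighbours of WRKY25 and the 40 of WRKY33 held 0 called genes each by both tools (3 and 3 at an unadjusted p under 0.05), shares near those over all genes tested, 0.999% called and 8.77% at that unadjusted p. Neither locus is in a stretch. Whether sequence differences between the line and Col-0 contribute to any of these counts was not tested, since the files hold no sequence.

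**Figure D4:**
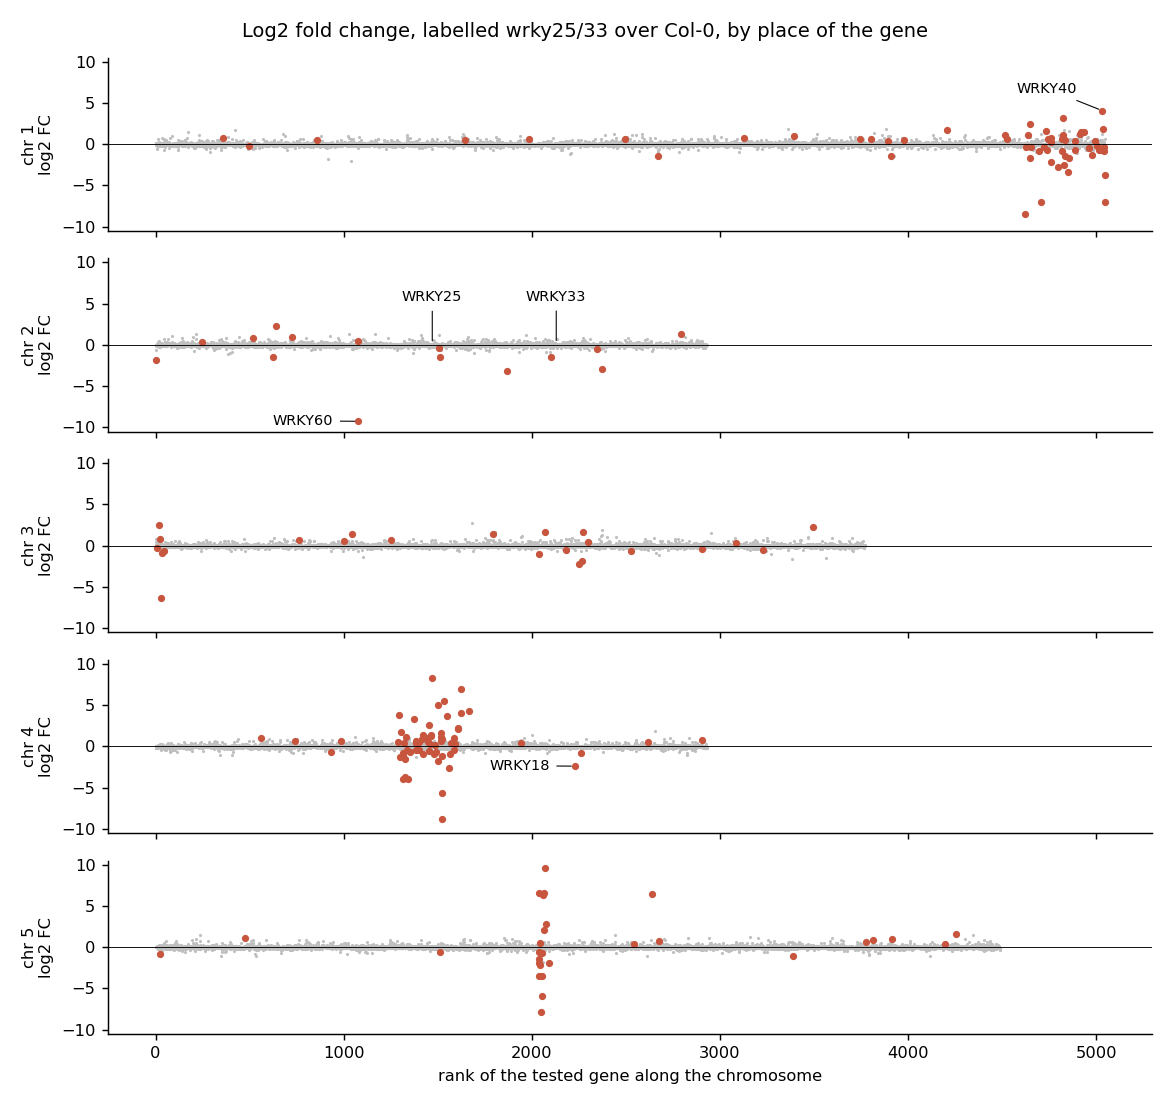
Pooled log2 fold change of the labelled line over Col-0 for each tested gene, by its rank along chromosomes 1 to 5. Red points are the called genes and grey points the others. The red points crowd at the end of chromosome 1, at the start of chromosome 3 and within chromosomes 4 and 5, away from WRKY25 and WRKY33 on chromosome 2.

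Outside the WRKY family, the lists for pathways in which WRKY33 is known to act held few called genes, and none of those was lower in the labelled line. Over the 17 lists with 231 distinct genes tested, 8 genes were called (3.46%, against 0.999% of all genes), 6 higher and 2 lower. The 2 lower and 2 of the higher genes are the WRKY genes described above. The count fell to 4 without the 2 h libraries and 5 without those numbered 1, and rose to 14 without the 24 h libraries. The 9 tested genes reported as WRKY33 targets had a median log2 fold change of 0.13, with 1 higher and 0 lower, and 3 (33.3%) at an unadjusted p under 0.05, against 8.77% of all genes.

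PAD3 (AT3G26830), the enzyme of the last step of camalexin synthesis, was the called member. Its level was 0.381, 0.234 and 0.687 CPM in Col-0 and 1.45, 0.527 and 1.72 CPM in the labelled line at 0 h. At 2 h it was 0.855, 0.765 and 0.295 CPM against 1.56, 1.84 and 3.5 CPM, and at 24 h 0.257, 0.236 and 0.533 CPM against 0.762, 1.26 and 1.55 CPM. The groups overlapped at 0 h and were apart at 2 h and 24 h, on low counts of 92 and 331 reads in all. PAD3 rose by 1.67 ± 0.27 (log2, adjusted p = 0.00235), and the call ended without the libraries numbered 1 or 3 (adjusted p = 0.0518 and 0.0707). It was called at no single time (adjusted p = 0.358 at 2 h and 0.415 at 24 h). CYP71A12, which acts earlier in the same pathway, had 1.17 ± 0.34 (adjusted p = 0.181). Of the 11 camalexin and indole glucosinolate genes tested, 1 rose and 0 fell, with a median of 0.34, and 3 (27.3%) had an unadjusted p under 0.05. The other reported targets did not pass, among them ACS6 of ethylene synthesis at 0.27 ± 0.38 (adjusted p = 0.907), NCED3 of abscisic acid synthesis at -0.02 ± 0.22 (adjusted p = 0.99), and MKS1, a binding partner of WRKY33, at 0.04 ± 0.18 (adjusted p = 0.978).

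Of 11 salicylic acid and immunity genes, 1 rose and 0 fell by edgeR, with a median of 0.20, and 3 (27.3%) had an unadjusted p under 0.05. The called gene, ICS1 (AT1G74710), makes the precursor of salicylic acid, and it had a mean of 14.6 CPM in Col-0 and 24.2 CPM in the labelled line. At 2 h, where both genotypes were highest, Col-0 had 24.4, 27.9 and 19.8 CPM and the labelled line 42.1, 50.4 and 35.3 CPM. The groups overlapped at 0 h and 24 h, and the labelled line was higher in 9 of 9 pairs. ICS1 was called at no single time (adjusted p = 0.182 at 2 h and 0.406 at 24 h). The difference was 0.69 ± 0.11 (log2, adjusted p = 0.00268), and without the replicate number in the model it did not pass (0.68, adjusted p = 0.214), nor without the libraries numbered 3 (0.60, adjusted p = 0.091) or without the 2 h libraries (0.63, adjusted p = 0.139). EDS5, the transporter that exports the product of ICS1 from the plastid, had 1.04 ± 0.25 (adjusted p = 0.0586 by edgeR) and was called by DESeq2, and the immune regulators EDS1 and PAD4 had 0.18 ± 0.12 and 0.07 ± 0.10 (adjusted p = 0.756 and 0.91).

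No gene of the other hormone and stress lists was called by edgeR with times pooled, and DESeq2 called 2, the ethylene response factor ERF1 and the iron superoxide dismutase FSD1. None of 11 genes of the MAP kinase module with WRKY33 partners passed, where the median was 0.04 and MPK3, which phosphorylates WRKY33, had 0.00 ± 0.19 (adjusted p = 0.999). Of 29 genes of abscisic acid synthesis, signalling and response 0 were called, with a median of 0.01, and RD29A, a marker of salt and drought response, had 438 CPM in Col-0 and 420 CPM in the labelled line (0.24 ± 0.30, adjusted p = 0.895). Of 12 ion transport genes 0 were called, with a median of -0.02, and the plasma membrane sodium exporter SOS1 had 0.14 ± 0.08 (adjusted p = 0.645). None of 18 jasmonate genes (median 0.02), 19 ethylene genes (0.07), 17 redox genes (0.21), 11 heat shock genes (0.22) and 11 clock genes (0.05) was called. At an unadjusted p under 0.05 the 11 MAP kinase genes had 1, the 29 abscisic acid genes 3, the 12 ion transport genes 1, the jasmonate genes 1, the ethylene genes 5, the redox genes 6, the heat shock genes 1 and the clock genes 1. The share was 26.3% of the ethylene genes and 35.3% of the redox genes, 5.56 to 10.3% in the other 6 of these lists, and 8.77% of all genes tested. Among single genes, the jasmonate repressor JAZ1 had 0.13 ± 0.14 (adjusted p = 0.878), the heat shock chaperone HSP101 0.22 ± 0.18 (adjusted p = 0.817), the clock gene CCA1 0.02 ± 0.14 (adjusted p = 0.983) and the catalase CAT2 -0.01 ± 0.10 (adjusted p = 0.994). Larger values that did not pass included LTP3, a lipid transfer protein, at -0.88 ± 0.28 (adjusted p = 0.245), ACS11 of ethylene synthesis at -1.05 ± 0.37 (adjusted p = 0.331) and the glutathione transferase GSTU4 at 0.66 ± 0.21 (adjusted p = 0.263). ERF1 stood at 1.72 ± 0.45 (adjusted p = 0.101 by edgeR) with means of 0.128 and 0.418 CPM, while FSD1 had 0.49 ± 0.12 (adjusted p = 0.0552).

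Of 21 photosynthesis genes 1 rose and 0 fell by edgeR, with a median of 0.11, and DESeq2 called LHCB1.1 in addition. At an unadjusted p under 0.05 the number was 8 of 21 (38.1%, against 8.77% of all genes). LHCB2.2 (AT2G05070), a light-harvesting protein of photosystem II, had a mean of 583 CPM in Col-0 and 751 CPM in the labelled line, 0.36 ± 0.08 on the log2 scale (adjusted p = 0.022). It was called at no single time (adjusted p = 0.656 at 2 h and 0.655 at 24 h). It is nearly identical to LHCB2.1, which had 0.35 ± 0.10 (adjusted p = 0.192). Multimapping reads were left out, so reads that match both genes may be missing from the counts of each. The call of LHCB2.2 ended without the libraries of 0 h or of 2 h (adjusted p = 0.283 and 0.442), without those numbered 1, 2 or 3 (0.166, 0.178 and 0.132) and without the replicate number in the model (0.108). It also ended without Col-0 2 h replicate 3 and without the labelled line's 0 h replicate 3 or 2 h replicate 1 (adjusted p = 0.0595, 0.0552 and 0.0522), and with the times averaged (0.0507). The reference genes UBQ10 and ACT2 had 0.01 ± 0.10 and -0.08 ± 0.06 (adjusted p = 0.989 and 0.796).

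**Figure D5:**
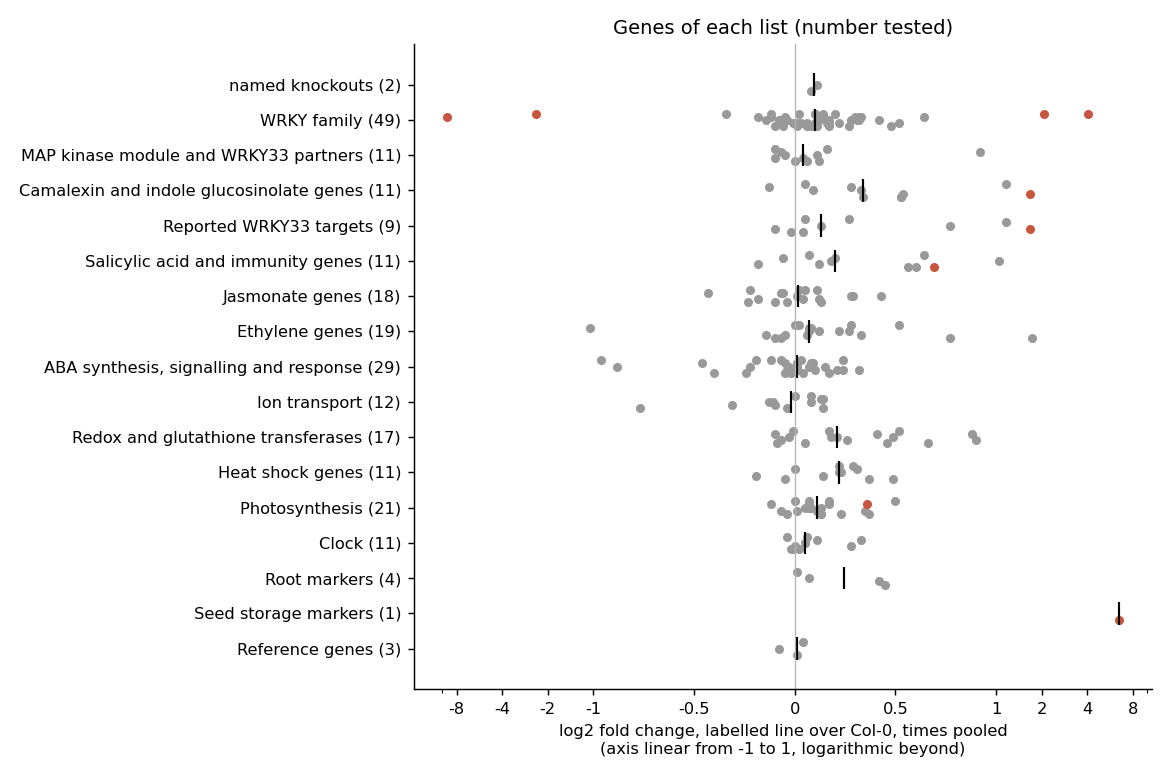
Pooled log2 fold change of the labelled line over Col-0 for the tested genes of each list, with the number tested in brackets; the axis is linear between -1 and 1 and logarithmic beyond. Each point is a gene, red where it was called, and the vertical bar is the median of the list. Outside the WRKY family and 1 seed storage gene, the red points are PAD3, shown in both lists that hold it, ICS1 and LHCB2.2, all to the right of 0.

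A separate time course of the study has Col-0 at 0 h and 24 h with 2 libraries each. Its table was normalised separately and its 24060 genes do not include all of those described, so the levels are set side by side with no test. WRKY60 stood at 19.6 to 47.4 CPM there, WRKY40 at 10.7 to 20.5 CPM and AT5G28030 at 0.697 to 2.59 CPM, each nearer the Col-0 libraries than the labelled line. WRKY25 stood at 43.9 to 78 CPM and WRKY33 at 31.4 to 60.8 CPM. Of 27 held genes with at least 5 CPM and a log2 fold change of at least 1 in size, 13 were in that table. WRKY18, AT4G24420, AT4G23220 and AT1G75945 were not among the 13, nor was any locus of chromosome 3 or 4. On a log scale with 0.5 CPM added, the mean level of 9 of the 13 lay closer to Col-0 of the mutant experiment and that of 4 closer to the labelled line. The scale matters for some: in plain CPM AT1G79450 and AT1G80900 lay closer to Col-0 and AT1G80130 closer to the labelled line.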

How the data were processed

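The authors deposited, for each library of the mutant experiment, counts of reads per gene in 3 columns (strand ignored, first and second strand); the first was used, since 49.8 to 50.4% of stranded reads fell on the second strand. STAR and the TAIR10 build are named per the submitters' processing notes; for the version and annotation the sources used here say nothing. Rows that name no gene were left out of library sizes: 3.95 to 5.87% of reads were unmapped, 1.34 to 3.89% multimapping, 0.674 to 1.26% outside genes and 4.94 to 5.99% ambiguous. The time-course table holds expected counts deposited by the authors, rounded here to whole numbers and scaled to CPM.

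Genes were filtered with filterByExpr over the 6 groups, scaled by TMM and tested with edgeR 4.0.16 (quasi-likelihood, R 4.3.3) on genotype, time and replicate number, with Benjamini-Hochberg adjustment, and single times and the 2-term interaction in a model with a mean per group. DESeq2 1.42.0, other filters, scalings, strand columns, models and left-out libraries were the alternatives. The script was tested on simulated data. The deposited sheet of conditions calls the replicate number a batch, and deviations from group means correlated at 0.175 to 0.754 between same-numbered libraries of different groups (45 pairs) and at -0.492 to 0.117 between others (90 pairs), so the numbers pair the libraries. No 2 libraries were identical (0 pairs).

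The members and gene lists were chosen with earlier results of these data known. The rule for named genes takes WRKY25, WRKY33, up to 4 called members per list, and the 12 largest held rises and falls with a mean of at least 5 CPM; of the last, those with a symbol and 2 loci without one in each direction are printed. Uncalled list members given beside them, WRKY26 and neighbours were chosen after values were seen. Gene names come from these lists, not from the files.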

Additional observations from a re-analysis of the deposited data

How the results depend on the processing

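The count of 86 genes held at every time stayed within 1.5 times under all 34 alternatives (58 to 110). Its members changed more, with 58 to 86 of the 86 held again. That number was 58 and 60 with the first and second strand columns. It was 66 without the 0 h libraries, 61 without the 2 h libraries, and 65 and 67 without replicates 1 and 3. With fewer libraries the demand for no overlap is also easier to meet. For the interaction, 0 genes were called in the alternatives where edgeR or DESeq2 gave that test. The pooled count of 193 became 332 with DESeq2, 104 without the replicate block, 98 without the 0 h libraries, 78 without the 2 h libraries and 67 when a fold above 1.5 was tested, and 93 to 227 with libraries or replicate numbers left out. Calls at 0 h (45) became 80 with DESeq2 and 18 to 60 with replicates left out. Calls at 2 h (64) became 123 with DESeq2, 34 without the replicate block and 17 to 80 with replicates left out. Calls at 24 h (57) became 119 with DESeq2, 35 without the block, 34 without the 2 h libraries and 16 to 168 with replicates left out. Called list members (8) became 5 with a filter of 1 CPM in 9 libraries, 5 without the block, 4 without the 2 h and 14 without the 24 h libraries, 5 at a fold above 1.5 and 5 to 11 with replicates left out. Called genes in the stretches (120) became 76 without the 0 h libraries, 63 without the 2 h libraries, 55 at a fold above 1.5 and 68 to 136 with replicates left out. The log2 fold change of WRKY25 ran from 0.00 to 0.16 with replicates left out (0.00 without replicate 2, adjusted p = 1). That of WRKY33 ran from -0.03 to 0.40, being -0.03 without the labelled line's 2 h replicate 2 and -0.02 without replicate 2 (adjusted p = 0.992 and 0.99), and neither gene was called in any alternative. The cause of these changes was not tested, except that fewer libraries enter some fits. Among the genes named, the replicate block decided the calls of ICS1, LHCB2.2 and CRA1 only. An alternative chosen after the data were seen, without the 24 h libraries numbered 2, gave 237 pooled calls, 172 of them shared, and 100 held genes.

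PAD3 and WRKY74 rest on few reads, 92 and 64 in Col-0. The median standard error of the log2 fold change was 0.11, which is not a limit of detection. Differences several times that size could go uncalled, as for FSD1 at 0.49 ± 0.12 (adjusted p = 0.0552 by edgeR). Intervals on summed counts cover counting error only.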

Other observations

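CRA1 (AT5G44120), a seed storage globulin, was the single tested member of 4 seed storage markers and was called higher in the labelled line, with a log2 fold change of 6.49 ± 1.34 (adjusted p = 0.0205, edgeR). In Col-0 it had 9 reads in all 9 libraries. In the labelled line it had 0, 12 and 1 reads at 0 h, 2, 1159 and 4 reads at 2 h and 225, 6 and 1 reads at 24 h. The groups overlapped at every time, and 2 libraries held nearly all of the 1410 reads. Without the labelled line's 2 h replicate 2 the log2 fold change was 3.45 (adjusted p = 0.245), and the call also ended without Col-0 2 h replicate 1, Col-0 2 h replicate 2 or Col-0 24 h replicate 2 (adjusted p = 0.0912, 0.133 and 0.0858) and without the replicate block (adjusted p = 0.0527).

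Called genes were unevenly spread over the chromosomes, at 2.25% of the tested genes of chromosome 4, 1.19% of chromosome 1, 0.646% of chromosome 5, 0.61% of chromosome 3 and 0.512% of chromosome 2, which holds WRKY25, WRKY33 and WRKY60.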
